A study of Danio rerio with 25 samples.

Results

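The step from Day 6 (D6) to Day 7 (D7) of a dexamethasone (DEX) course in zebrafish larvae was examined, that is, the last day of exposure set against the day that the study proposed as the critical one. The comparison used the 3 D7 libraries and the 3 D6 libraries of the course, chosen by their labelled day, out of 15 libraries of the DEX course and 25 libraries in the whole series. All 6 libraries were made from whole larvae kept continuously in 10 µM DEX, a synthetic glucocorticoid, and the study's methods name the Tg(Ola.Sp7:nlsGFP) line, in which the osteoblast promoter Sp7 drives a nuclear green fluorescent protein. D7 and D6 differ in age by a day as well as in the length of exposure. Untreated siblings were not analysed here, so that growth and exposure cannot be told apart. The labels give the day as a day after DEX, whereas the methods count days after fertilisation. The question behind the comparison was what still moves in the larval transcriptome once the proposed critical day has passed.

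Glucocorticoids bind a nuclear receptor that switches on genes of amino acid breakdown and gluconeogenesis and holds back cytokine genes, and in bone they lower the work of osteoblasts, the matrix-forming cells. At this stage the larval head skeleton is still mostly cartilage, built of type II collagen and matrilin, on which bone collagen and mineral are laid down. Whole larvae also hold muscle, eye, liver, gut, brain, blood and skin, so each gene was read as a sum over tissues, and in such bulk samples fewer cells of a type and less RNA per cell cannot be told apart.

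Depth was similar in both groups, with 13685297 to 16524549 counts per library on D7 and 14758356 to 16308529 on D6. Of 1003 listed marker and pathway genes, 956 passed the filter on low counts. Within each day the libraries with letters a and b were close and the library with letter c stood apart. The root mean square log2 difference was 0.391 between a and b, 1.1 between a and c and 1.13 between b and c on D7, against 0.462, 1.14 and 1.05 on D6. Some lists stood apart in c to the same side on both days. Skin and ionocyte genes lay at a median of 1.37 (log2) from the a and b libraries in D7 c and at 0.98 in D6 c, and photoreceptor genes at -1.01 in D7 c and -1.58 in D6 c. Other lists stood apart on 1 day, such as the cartilage genes, at -0.01 in D7 c and -2.07 in D6 c. Main results that rest on the c libraries are therefore given with and without them. The fit without them keeps only a and b, which were the closest pair on every day of the course. Its adjusted p-values thus rest on the spread between near-alike libraries, and its calls do not extend to the c libraries. The letters are not explained in the labels and were used as a block, as fixed when the comparison was defined. Libraries of the same letter deviated from their day's mean together, but a and b did so with each other about as much.

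Of 21750 genes tested, 2 passed an adjusted p-value of 0.05 for D7 against D6 (0.0092%), and both had values on D7 that did not overlap those on D6. At an unadjusted p below 0.05 there were 1684 genes (7.74%), 810 higher (3.72%) and 874 lower (4.02%) on D7. The 3 D7 values all lay above the 3 D6 values for 946 genes (4.35%) and all below them for 715 genes (3.29%). The direction was the same in all 3 letter pairs for 6891 genes (31.7%), with 3511 above D6 on D7 (16.1%) and 3380 below (15.5%). The pairs a and b shared a direction for 13836 genes, and the c pair went the other way for 3636 genes that were lower and 3274 genes that were higher on D7 in pairs a and b. The genes and lists below, other than those 2 genes, are thus given as values that did not pass the adjusted threshold, and higher or lower describes their values or estimates on D7 only.

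The gene that rose was si:ch211-198i6.4 (ENSDARG00000105183), which carries only a clone-based name and no role in the tables used. Its read counts scaled to library size (CPM) were 16.5, 23.9 and 37.8 in D7 a, b and c, against 2.56, 3.40 and 5.98 in D6 a, b and c. Every D7 library was above every D6 library, and c was the highest on each day. The mean was 26.1 ± 10.8 on D7 and 3.98 ± 1.79 on D6 (SD, n = 3 each). The fit gave a 6.60-fold difference, a log2 fold change of 2.72 (SE 0.32, 95% confidence interval 2.04 to 3.40, edgeR quasi-likelihood, Benjamini-Hochberg adjusted p = 0.0151). The call was lost without the letter block (log2 fold change 2.71, edgeR adjusted p = 0.917) and in the fit of the 6 libraries alone (edgeR adjusted p = 0.126). It was also lost when any a or b library of either day was left out, with edgeR adjusted p of 0.0865 without D7 a, 0.225 without D7 b, 0.105 without D6 a and 0.188 without D6 b. Over 12 alternatives the log2 fold change stayed between 2.54 and 2.82, and the adjusted p lay between 1.4e-12 in DESeq2 and 0.917.

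The gene that fell was hspb6 (ENSDARG00000077236), a small heat shock protein known from muscle. It had 18.05, 12 and 20.8 CPM in D7 a, b and c, against 62.0, 52.8 and 72.8 CPM in D6 a, b and c. The 6 values separated into their days with a wide gap. Its mean was 17.0 ± 4.52 CPM on D7 and 62.5 ± 9.99 CPM on D6 (SD, n = 3 each). In the fit it was 3.75-fold lower on D7, a log2 fold change of -1.91 (SE 0.25, 95% confidence interval -2.45 to -1.36, edgeR adjusted p = 0.0347). Without the letter block the log2 fold change was -1.88 and the call was lost (edgeR adjusted p = 0.917), as in the fit of the 6 libraries (edgeR adjusted p = 0.126). Leaving out D7 a, D7 b, D6 a or D6 b gave edgeR adjusted p of 0.118, 0.475, 0.133 and 0.241. The range over 13 alternatives was -2.07 to -1.82 for the log2 fold change and 9.09e-09 to 0.917 for the adjusted p.

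The other genes with small p and the same direction in all 3 pairs included enzymes and carriers of blood lipids. PLTP, which moves phospholipids between lipoproteins, had 45.7, 46.7 and 71.4 CPM on D7, against 14.2, 18.6 and 34.7 CPM on D6 in libraries a, b and c. Its days did not overlap, the log2 fold change was 1.32 (SE 0.21), and it missed the threshold (edgeR adjusted p = 0.0844). It passed in the alternatives without the low-count filter and without D6 c, in DESeq2, and in the a and b libraries alone. LPL, the lipase that frees fatty acids from circulating triglyceride, had 641, 685 and 900.1 CPM on D7, against 299.5, 359 and 386 CPM on D6. Every pair was higher on D7 by a similar amount, with a log2 fold change of 1.08 (SE 0.22, edgeR adjusted p = 0.344). MYLIP (ENSDARG00000008859), a ubiquitin ligase that marks the LDL receptor for degradation, had 98.5, 97.4 and 155 CPM on D7, against 55.2, 60.5 and 85.4 CPM on D6. A second gene with the same symbol, ENSDARG00000055118, lay the other way, with 28.4, 28.3 and 33.1 CPM on D7 and 48.9, 42.3 and 54.9 CPM on D6. Neither of the MYLIP genes overlapped between days, with log2 fold changes of 0.79 and -0.70.

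The other genes with small p and higher values had varied roles. INHBB, a subunit of activin B, had 43.9, 52.7 and 29.5 CPM on D7, against 15.7, 20.7 and 18.9 CPM on D6. The difference was smallest in the c pair, and the log2 fold change was 1.18 (SE 0.22). SOCS1, an inhibitor of cytokine signalling through JAK kinases, had 33.2, 36.1 and 72.7 CPM on D7, against 20.6, 21.0 and 26.4 CPM on D6. Here the c pair held the largest difference. The kinases PDK1, which blocks pyruvate dehydrogenase, and PDPK1, which activates AKT, had log2 fold changes of 0.75 (SE 0.16) and 0.93 (SE 0.20). PDK1 did not overlap between days, at 19.9 to 23.5 CPM on D7 and 11.15 to 13.7 CPM on D6. The rule also named the lens crystallin crygm2d12, trim109, ABTB1 and si:ch211-195m9.3, all without overlap between the days and with log2 fold changes of 0.99, 0.88, 0.70 and 1.42. None of these genes passed the adjusted threshold (edgeR adjusted p from 0.257 to 0.376).

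**Figure D1:**
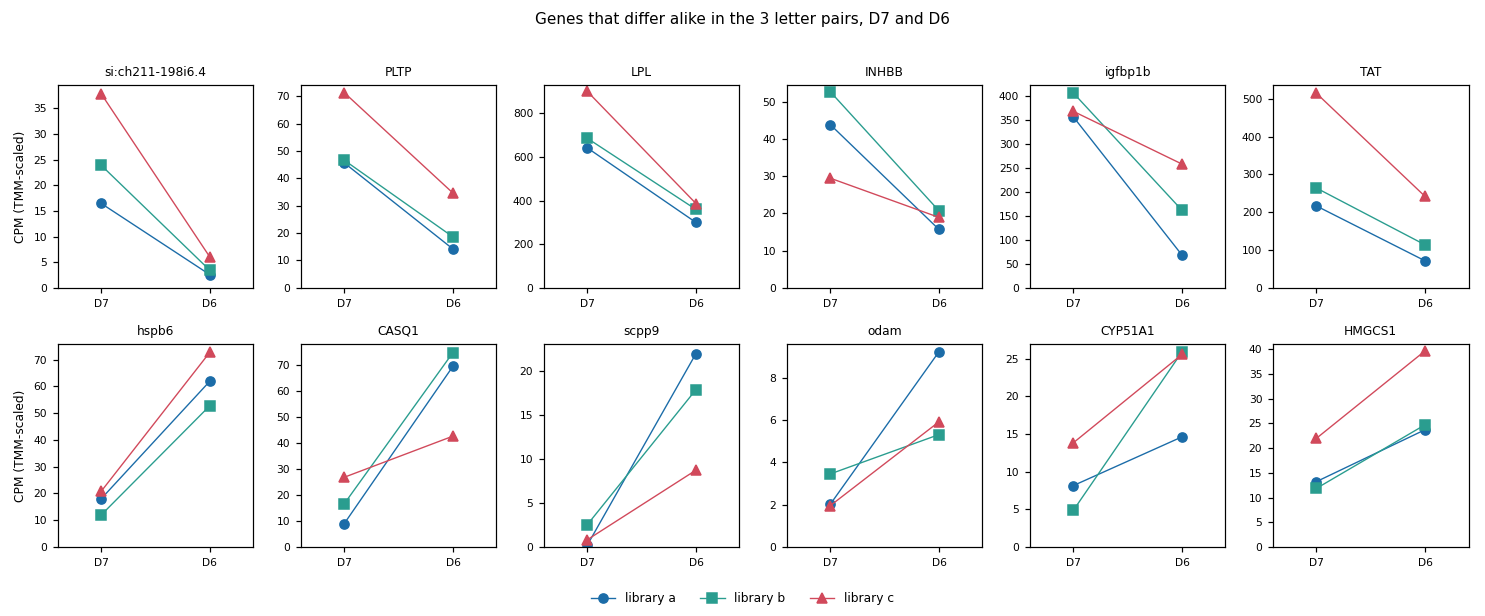
CPM scaled by TMM (y axis, from 0) of 12 genes in the 3 D7 libraries (left) and the 3 D6 libraries (right), with 1 line for each letter and no error bars because every library is drawn. All lines slope the same way within a panel, and the a, b and c lines of si:ch211-198i6.4 and hspb6, the genes that passed the test, leave a gap between the days.

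Among the genes with lower values was 1 of the calcium store of muscle. CASQ1, the calcium store protein of fast muscle, had 9.02, 16.6 and 26.85 CPM on D7, against 69.6, 74.9 and 42.7 CPM on D6. The gap was wide in pairs a and b and narrow in pair c, and the log2 fold change was -1.90 (SE 0.32, edgeR adjusted p = 0.124). CASQ2, its cardiac counterpart and looked up after its value was seen, had 8.59, 10.9 and 28.4 CPM on D7, against 28.8, 29.2 and 30.2 CPM on D6. Again the c pair hardly differed. The skeletal muscle list as a whole split by letter. Its 41 tested genes had a median log2 fold change of -0.12, with 0 genes at an unadjusted p below 0.05 in either direction. Pair medians were -0.62 and -0.53 in a and b and 0.74 in c, and 32 genes were lower in pairs a and b and higher in pair c. In the a and b libraries alone 14 were lower and 0 higher at an unadjusted p below 0.05, where 7.68% and 5.27% of all genes were. None of the 41 was called there.

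Genes of the secretory calcium-binding phosphoprotein family, whose products take part in the mineralising matrix of teeth and bone in fish, differed in both directions. scpp9 had 0.217, 2.54 and 0.827 CPM on D7, against 22.0, 17.9 and 8.75 CPM on D6. All D7 values were low and none overlapped, with a log2 fold change of -3.81 (SE 0.73, edgeR adjusted p = 0.296), that is, 14.0-fold lower on D7 in the fit. odam, a family member of the enamel organ in mammals, had 2.02, 3.45 and 1.955 CPM on D7, against 9.23, 5.31 and 5.92 CPM on D6, and a log2 fold change of -1.47 (SE 0.29). After the values of these genes were seen, 3 more members were looked up. scpp1 lay with them, at 2.74, 1.34 and 0.902 CPM on D7, against 4.69, 4.60 and 6.64 CPM on D6. scpp5 lay the other way, at 16.5, 17.8 and 20.6 CPM on D7, against 13.1, 7.52 and 12.7 CPM on D6. enam, which encodes an enamel protein, was lower on D7 in pairs a and b only, with 4.4, 2.33 and 6.99 CPM on D7, against 21.6, 11.1 and 2.1 CPM on D6.

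The remaining genes with small p and lower values had varied roles. gap43, a protein of growing axons, was even within each day, at 20.6, 20.02 and 19.85 CPM on D7, against 31.0, 30.4 and 37.55 CPM on D6. GPT2, a mitochondrial alanine aminotransferase, had 23.1, 19 and 17.8 CPM on D7, against 33.9, 32.95 and 40.4 CPM on D6. Both kept their days apart, with log2 fold changes of -0.71 and -0.83. HK1, the hexokinase of the first glycolytic step, had 52.8, 47.65 and 63.5 CPM on D7, against 76.0, 77.7 and 174 CPM on D6. The D6 c library was far above the other D6 libraries. The de novo DNA methyltransferase DNMT3B, the chromatin remodeller SMARCAD1 and the annexin anxa5b also had no overlap between days, with log2 fold changes of -1.05, -0.998 and -0.96. The exporter ABCC4 (-0.78) and the replication licensing factor CDT1 (-1.60) overlapped between days, although each pair was lower on D7. None of the genes in this paragraph passed the adjusted threshold (edgeR adjusted p from 0.344 to 0.438).

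Glucocorticoid response genes lay in opposite directions in the letter pairs. Of 25 tested genes of the glucocorticoid response, 0 passed the adjusted threshold. At an unadjusted p below 0.05, 2 were higher and 1 lower, where 3.72% and 4.02% of all genes were. The median log2 fold change was 0.06, against -0.03 over all genes tested. In pairs a and b 18 and 17 of the genes were higher on D7, whereas 17 were lower in pair c, with pair medians of 0.28, 0.21 and -0.36. In the a and b libraries alone the median was 0.20, 6 genes were higher and 1 lower at an unadjusted p below 0.05, where 5.27% of all genes were higher and 7.68% lower, and TAT was called (0.411% of all genes were called higher). The clearest gene was TAT, the tyrosine aminotransferase of liver and a classical glucocorticoid target, with 217, 264 and 515 CPM on D7, against 71.5, 114 and 242 CPM on D6. It was higher on D7 in each pair, but D6 c lay above D7 a, and the log2 fold change was 1.28 (SE 0.32, edgeR adjusted p = 0.461). zbtb16b, a zinc finger gene that glucocorticoids induce in mammals, had a log2 fold change of 0.51, and CEBPA, a liver and fat transcription factor, had -0.59. CEBPA had 37.9, 39.05 and 65.35 CPM on D7, against 44.45, 50.7 and 133 CPM on D6, where the c library stood alone.

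Genes that answer to fasting and growth signals were among the larger differences. igfbp1b, a blood protein that binds insulin-like growth factors and is made in fasting and stress, had 356.5, 406 and 368 CPM on D7, against 68.2, 162 and 258 CPM on D6. The D7 libraries were alike while the D6 libraries were spread, and the log2 fold change was 1.45 (SE 0.37, edgeR adjusted p = 0.461). Its paralogue IGFBP1 (ENSDARG00000099351) had 166, 195 and 171 CPM on D7, against 59.07, 77.5 and 251 CPM on D6, so that D6 c was above all D7 libraries. LPIN1, a phosphatidate phosphatase and coactivator of fat breakdown, had 364, 362 and 575 CPM on D7, against 187, 260 and 317 CPM on D6. SESN1, a stress-induced brake on the mTORC1 growth pathway, had 397, 415 and 562 CPM on D7, against 207, 276 and 349 CPM on D6. Both genes were higher in every D7 library than in any D6 library, with log2 fold changes of 0.76 and 0.73.

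The enzymes that burn fatty acids did not follow these genes. CPT1B, which loads fatty acids into muscle mitochondria, had 20.6, 23.1 and 18.6 CPM on D7, against 42.1, 49.3 and 36.1 CPM on D6. Its days were well apart, with a log2 fold change of -1.04 (SE 0.34). CPT2, the inner membrane partner, and HADHA, of the mitochondrial oxidation cycle, had log2 fold changes of -0.68 and -0.48, again without overlap. In all, of 45 tested genes of fasting and fatty acid oxidation, 0 passed the adjusted threshold. At an unadjusted p below 0.05, 3 were higher and 7 lower, where 3.72% and 4.02% of all genes were. The median was -0.03, the same as over all genes.

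Genes of cholesterol and fatty acid synthesis mostly had lower estimates on D7, and none passed the adjusted threshold. Of 35 tested genes of cholesterol and fatty acid synthesis, 28 had a lower estimate on D7 and 15 were lower in all 3 pairs, where 15.5% of all genes were. At an unadjusted p below 0.05 there were 7 lower and 1 higher, where 4.02% and 3.72% of all genes were. The median was -0.26. HMGCS1, a synthase early in the pathway, had 13.2, 11.8 and 22.0 CPM on D7, against 23.7, 24.7 and 39.65 CPM on D6. All D7 libraries lay below all D6 libraries, with a log2 fold change of -0.92 (SE 0.26). SQLE (ENSDARG00000079946), the squalene epoxidase, had a log2 fold change of -1.34 (SE 0.42). CYP51A1, a sterol demethylase outside the list that was looked up after its value was seen, had 8.16, 4.86 and 13.8 CPM on D7, against 14.6, 25.9 and 25.6 CPM on D6. The gene that was higher was insig1, whose product holds the sterol sensor in the endoplasmic reticulum. It had 63.6, 64.0 and 55.6 CPM on D7, against 35.9, 40.5 and 42.5 CPM on D6, with a log2 fold change of 0.64 (SE 0.17) and no overlap.

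Cartilage genes mostly had lower values on D7 in pairs a and b and higher values in pair c. Of 26 tested genes 24 had a lower estimate, with a median of -0.64, yet 0 passed the adjusted threshold. At an unadjusted p below 0.05, 3 were lower, where 4.02% of all genes were. The pair medians were -1.08 in a, -1.04 in b and 1.01 in c, and 22 of the 26 genes were lower in pairs a and b and higher in pair c. COL2A1 (ENSDARG00000069093), the main collagen of cartilage, had 168, 175 and 205 CPM on D7, against 457, 503.5 and 78.8 CPM on D6. The D7 libraries were alike and the odd value was D6 c, the lowest of the 6. MATN1, a matrilin that links cartilage fibrils, had 52.4, 55.05 and 59.4 CPM on D7, against 130.4, 115 and 20.9 CPM on D6. COL10A1 (ENSDARG00000054753), a collagen of hypertrophic cartilage, had 37.0, 36.3 and 38.35 CPM on D7, against 139, 111 and 22.6 CPM on D6. The same pattern held for COL10A1 and MATN1 as for COL2A1, with D7 values close together and D6 values spread. In the a and b libraries alone, 16 of the 26 cartilage genes were called lower and 0 higher, where 0.984% of all genes were called lower and 0.411% higher.

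Bone genes had a like split. The 20 tested genes of osteoblasts and bone matrix had a median of -0.21, with pair medians of -0.60 in a, -0.60 in b and 0.69 in c, and 16 of them were lower in pairs a and b and higher in pair c. None passed the adjusted threshold and 2 were lower at an unadjusted p below 0.05, where 4.02% of all genes were. In the a and b libraries alone 7 were called lower, where 0.984% of all genes were. col1a1a, a chain of type I collagen of bone and skin, had 90.7, 86.8 and 408 CPM on D7, against 297, 339 and 124 CPM on D6. The c libraries reversed the order of the days. SP7, an osteoblast transcription factor, had low values of 2.31, 1.62 and 3.31 CPM on D7, against 4.4, 2.63 and 1.84 CPM on D6. Its direction also turned with the c pair. spp1, a mineral-binding phosphoprotein, had 4.26, 7.895 and 7.22 CPM on D7, against 21.7, 14.3 and 4.41 CPM on D6. krt5, a keratin of basal skin looked up after its value was seen, had the same shape, at 288, 282 and 1269 CPM on D7, against 771, 863 and 385 CPM on D6.

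**Figure D2:**
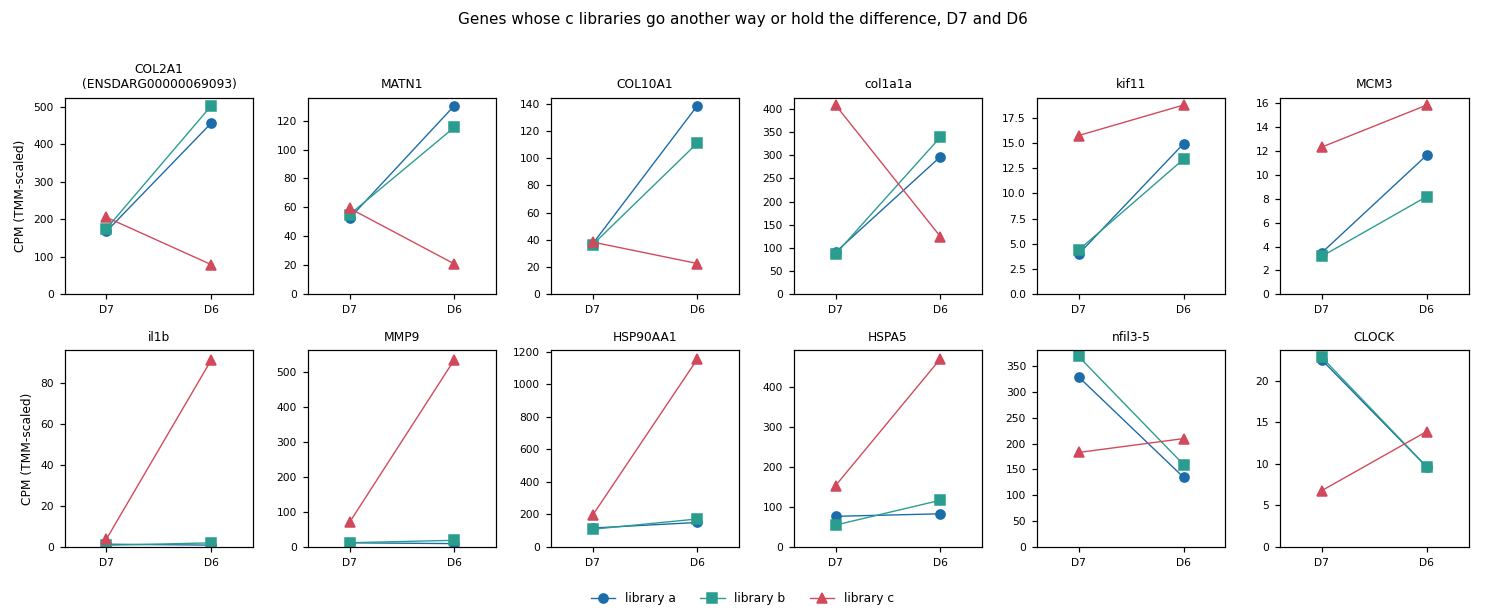
CPM scaled by TMM (y axis, from 0) of 12 genes in the 3 D7 libraries (left) and the 3 D6 libraries (right), with 1 line for each letter. In the matrix genes the c line crosses or runs against the a and b lines, and in il1b, MMP9, HSP90AA1 and HSPA5 the D6 c library lies far above the other 5 libraries.

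Genes of mitosis and DNA replication mostly had lower estimates on D7, more so in pairs a and b than in pair c, and none passed the adjusted threshold. All 31 tested genes of mitosis had a lower estimate, and 17 of them were lower in all 3 pairs, where 15.5% of all genes were. At an unadjusted p below 0.05, 11 were lower, where 4.02% of all genes were. The median was -0.54, with pair medians of -0.98 in a, -0.72 in b and -0.14 in c, where 13 of the 31 genes were higher on D7. kif11, a motor that builds the spindle, had 3.97, 4.37 and 15.7 CPM on D7, against 14.9, 13.4 and 18.7 CPM on D6. D7 a and b were low, whereas D7 c lay among the D6 values. CDC20, which starts the exit from mitosis, had 4.04, 4.65 and 6.02 CPM on D7, against 7.31, 6.865 and 10.26 CPM on D6, without overlap. TOP2A, the topoisomerase of chromosome separation, had 7.65, 8.60 and 25.9 CPM on D7, against 21.3, 20.95 and 27.6 CPM on D6. Of the same kind were 31 tested DNA replication genes, with a median of -0.29, 25 lower estimates and 10 lower at an unadjusted p below 0.05. Their pair medians were -0.52 in a, -0.55 in b and -0.0554 in c, where again 13 of 31 were higher. MCM3, a part of the replicative helicase, had 3.465, 3.17 and 12.3 CPM on D7, against 11.6, 8.18 and 15.85 CPM on D6, with a log2 fold change of -1.04 (SE 0.30). MCM7, another part of that helicase, lay the other way in all 3 pairs, with a log2 fold change of 0.345. It had 54.5, 58.3 and 91.4 CPM on D7, against 50.5, 49.1 and 58.2 CPM on D6. In the a and b libraries alone 11 mitosis genes and 5 replication genes (MCM2, MCM3, MCM5, MCM6 and TYMS) were called lower and 0 higher, where 0.984% of all genes were called lower and 0.411% higher. Without D7 c the median of the mitosis genes was -1.09 and that of the replication genes -0.71.

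Lens genes mostly had higher estimates on D7, the least in pair a. Of 29 tested genes 27 had a higher estimate, 14 were higher in all 3 pairs, where 16.1% of all genes were, and 9 were higher at an unadjusted p below 0.05, where 3.72% of all genes were. Again 0 passed the adjusted threshold. The median was 0.50, with pair medians of 0.03 in a, 0.55 in b and 0.94 in c, and 16, 26 and 26 of the 29 genes were higher in these pairs. In the a and b libraries alone the median was 0.29 and 2 genes were higher at an unadjusted p below 0.05, where 5.27% of all genes were, and with 1 library left out the median ran from 0.22 to 0.80. The summed lens level was 9190, 9183 and 7733 CPM in D7 a, b and c, against 8817, 6147 and 4008 CPM in D6 a, b and c, so that the D6 libraries were the more uneven. crygm2d12, a gamma-crystallin of the lens fibre, had 411.5, 385 and 263 CPM on D7, against 225, 227 and 101 CPM on D6. The days did not overlap. BFSP2, of the beaded filament of lens fibres, had 92.6, 84.8 and 109.8 CPM on D7, against 85.1, 58.7 and 53.9 CPM on D6. The 45 photoreceptor genes showed no such shift in the fit of all libraries, with a median of -0.03 and 1 gene at an unadjusted p below 0.05, the rod factor NR2E3 (4.4, 5.005 and 3.835 CPM on D7, against 9.585, 7.22 and 13.7 CPM on D6). Their pair medians were -0.40 in a, -0.001 in b and 0.37 in c. In the a and b libraries alone 10 were lower and 2 higher at an unadjusted p below 0.05, where 7.68% and 5.27% of all genes were. There 2 were called lower and 0 higher, where 0.984% and 0.411% of all genes were.

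Erythroid, liver secretory and neuron lists mostly had lower estimates, with no gene past the adjusted threshold. Over all genes tested, 4.02% were lower and 3.72% higher at an unadjusted p below 0.05. Of 19 tested erythroid genes 18 had a lower estimate and 5 were lower at an unadjusted p below 0.05, with a median of -0.30. Their pair medians were -0.50 in a, -0.39 in b and -0.07 in c, where 8 of the 19 were higher on D7. gata1a, the master factor of red cells, had 0.794, 0.564 and 0.827 CPM on D7, against 1.28, 1.61 and 1.91 CPM on D6. SLC4A1 (ENSDARG00000012881), the anion exchanger of the red cell membrane, had 10.7, 15.5 and 14.7 CPM on D7, against 22.0, 27.6 and 22.4 CPM on D6. Both were lower in every D7 library than in any D6 library, and so was alas2, the first enzyme of heme synthesis in red cells, at 5.34 to 10.23 CPM on D7 and 12.85 to 14.2 CPM on D6. Of 29 tested liver secretory genes 8 were lower and 0 higher at an unadjusted p below 0.05, with a median of -0.24. The pairs were not alike, with medians of -0.44 in a, 0.07 in b and -0.34 in c, and 17 of the 29 genes were higher on D7 in pair b. VTN (ENSDARG00000053831), the adhesive plasma protein vitronectin, had 19.6, 18.3 and 18.2 CPM on D7, against 34.5, 34 and 23.9 CPM on D6. Prothrombin, f2, was likewise lower without overlap, with a log2 fold change of -0.58, whereas tfa, transferrin, ran between 112 and 309.6 CPM on D7 and between 191 and 430.3 CPM on D6. Of 37 tested genes of neurons and glia 6 were lower and 0 higher at an unadjusted p below 0.05, among them gap43 and nefma, a neurofilament, with 25.6, 24.2 and 22.6 CPM on D7, against 28.8, 49.1 and 52.5 CPM on D6. The neuron and glia list had pair medians of -0.14 in a, -0.25 in b and -0.24 in c, where 16 of the 37 were higher on D7.

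Macrophage and osteoclast genes showed no common direction. Of 27 tested genes, 1 was higher and 3 lower at an unadjusted p below 0.05, where 3.72% and 4.02% of all genes were. The median was -0.14. MPEG1, a pore-forming protein of macrophages, was even within each day, at 11.4, 11.5 and 11.6 CPM on D7, against 16.6, 17.7 and 19.1 CPM on D6. TCIRG1, a subunit of the proton pump with which osteoclasts acidify bone, had 31.5, 38.7 and 42.3 CPM on D7, against 22.2, 29.85 and 29.0 CPM on D6. These genes lay in opposite directions, each without overlap. The osteoclast enzymes ACP5 and CTSK had log2 fold changes of -0.22 (SE 0.48) and 0.11 (SE 0.23), so that a difference of either sign was within the error.

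Stress and inflammation genes differed between the days mainly through D6 c. Of 33 tested genes of heat shock and endoplasmic reticulum stress, 31 were lower on D7 in pair c, with pair medians of 0.05 in a, -0.04 in b and -0.91 in c. The fit gave a median of -0.40 and 11 genes lower and 0 higher at an unadjusted p below 0.05, where 4.02% and 3.72% of all genes were. None passed the adjusted threshold. HSP90AA1, a cytosolic chaperone, had 117, 109 and 194 CPM on D7, against 151, 172 and 1156 CPM on D6. HSPA5, the main chaperone of the endoplasmic reticulum, had 76.5, 54.8 and 153.1 CPM on D7, against 82.9, 117 and 469.8 CPM on D6. In both, D6 c was far above every other library. Another gene of this kind, hsp90aa1.1, was higher on D7 in pairs a and b. It had 123, 83.7 and 124 CPM on D7, against 59.8, 36.7 and 131.5 CPM on D6. In the a and b libraries alone 2 stress genes were called higher and 0 lower, where 0.411% and 0.984% of all genes were. Inflammation and acute phase genes, 29 of which were tested, had pair medians of -0.04, 0.04 and -0.95 in a, b and c. il1b, an early cytokine, had 1.37, 0.846 and 3.91 CPM on D7, against 0.923, 2.03 and 91.5 CPM on D6. MMP9, a gelatinase of neutrophils and osteoclasts, had 12, 12.3 and 70.4 CPM on D7, against 9.73, 19.2 and 537 CPM on D6. The complement gene c3a.1 did not overlap between days, at 57.75, 103 and 82.7 CPM on D7, against 110.1, 140 and 220.3 CPM on D6. Without D6 c the medians turned to 0.22 for the stress genes and 0.19 for the inflammation genes.

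Autophagy genes had slightly higher medians on D7 in pairs a and b. Of 52 tested genes of autophagy and lysosomes, 33 had a higher estimate and 18 were higher in all 3 pairs, where 16.1% of all genes were. At an unadjusted p below 0.05, 5 were higher and 0 lower, where 3.72% and 4.02% of all genes were. None passed the adjusted threshold. The median was 0.14, with pair medians of 0.27, 0.27 and 0.02 in a, b and c. Members that coat the autophagosome led the list. gabarapb had 472.5, 497 and 443 CPM on D7, against 293, 270 and 351 CPM on D6, and MAP1LC3A had 100.1, 99.9 and 122 CPM on D7, against 76.5, 72.35 and 71.5 CPM on D6. Both kept the days apart, with log2 fold changes of 0.63 (SE 0.21) and 0.53 (SE 0.19). GABARAPL2 had 190.2, 184.5 and 134 CPM on D7, against 136, 99.7 and 78.45 CPM on D6, so that D6 a exceeded D7 c by little. atg9b, the membrane carrier of autophagy, had 116, 116 and 139 CPM on D7, against 89.6, 92.1 and 89.3 CPM on D6.

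Circadian genes differed by letter. Of 38 tested genes 18 were higher in pairs a and b and lower in pair c, and the median of the fit was -0.06. At an unadjusted p below 0.05, 2 genes were higher and 2 lower, where 3.72% and 4.02% of all genes were. nfil3-5, an NFIL3-type repressor of clock-controlled genes, had 329, 368 and 183 CPM on D7, against 135, 159 and 209.5 CPM on D6. CLOCK (ENSDARG00000011703), a core activator of the clock, had 22.5, 22.8 and 6.77 CPM on D7, against 9.66, 9.67 and 13.9 CPM on D6. NR1D2, a nuclear receptor that represses clock activators, had 43.5, 47.8 and 138.5 CPM on D7, against 82.5, 89.7 and 126 CPM on D6. The a and b libraries of D7 were alike in all 3 genes, and D7 c did not follow them. Over the whole clock list, however, it was D6 c that stood apart. It lay at a median of 0.66 (log2) from D6 a and b, against -0.08 for D7 c from D7 a and b. aanat2, the melatonin enzyme of the pineal gland that peaks at night, had 14.2, 17.8 and 2.93 CPM on D7, against 3.48, 3.88 and 2.89 CPM on D6. The hour of sampling is not given in the sources used here, and its part in these differences was not tested. Without the c libraries, 5 clock genes were called higher (aanat2, bmal2, rorcb, nfil3-5 and CLOCK) and NR1D2 lower, where 0.411% of all genes were called higher and 0.984% lower.

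Genes of hypoxia and glycolysis mostly had lower estimates. Of 35 tested genes, 27 had a lower estimate, as did 26 in the a and b libraries alone, and 0 passed the adjusted threshold. At an unadjusted p below 0.05, 2 were higher and 5 lower, where 3.72% and 4.02% of all genes were. In all 3 pairs 14 were lower and 4 higher, where 15.5% and 16.1% of all genes were. The median was -0.21. PKM, the pyruvate kinase, had 230.2, 236 and 239.6 CPM on D7, against 303.5, 310.5 and 628.5 CPM on D6. EGLN3, an oxygen sensor that marks HIF proteins for degradation, had 2.89, 2.115 and 1.73 CPM on D7, against 4.26, 4.06 and 15.85 CPM on D6. Neither overlapped between days, and in both D6 c was the highest value. HIF1A itself had 86.5, 87.55 and 204 CPM on D7, against 119, 128 and 352.5 CPM on D6, with the c library high on both days. Among 11 tested interferon genes, isg15, a ubiquitin-like effector, had 1.23, 0.775 and 3.61 CPM on D7, against 3.48, 2.33 and 7.96 CPM on D6, whereas stat2, which carries the interferon signal, had 26.7, 27.6 and 25.7 CPM on D7, against 15.55, 19.3 and 21.8 CPM on D6. The interferon median was -0.24.

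The remaining lists had no gene past the adjusted threshold and at most 4 at an unadjusted p below 0.05. Gut epithelium (28 genes) had pair medians of -0.25, -0.36 and 1.14 in a, b and c, exocrine pancreas (23 genes) -0.29, -0.06 and 0.97, yolk and intestine lipid transport (27 genes) -0.46, -0.33 and 0.39, and pigment cells (27 genes) -0.28, -0.35 and 0.38. In all 4 lists the c pair lay on the other side of zero from pairs a and b. APOB (ENSDARG00000042780), the structural protein of lipoproteins, showed it with 17.25, 24.1 and 10.45 CPM on D7, against 55.2, 49.7 and 7.96 CPM on D6. Median log2 fold changes of the fit lay near that of all genes for skin and ionocytes (0.03), myelin (-0.03), oxidative stress (-0.04), heart muscle (-0.07), p53 targets (-0.00488) and the mitochondrial genome (0.09). In each of these lists too, pair c lay on the other side of zero from pairs a and b. The mitochondrial genome had pair medians of -0.07, -0.26 and 0.43, and skin and ionocytes -0.13, -0.25 and 0.27. Medians of the fit were 0.18 for endocrine pancreas and gut hormones, -0.20 for pituitary and hypothalamus, -0.27 for endothelium, -0.31 for matrix proteases and their inhibitors and -0.56 for neutrophils, where 11 genes were tested and pair c had a median of -0.82. Pituitary and hypothalamus had pair medians of 0.21, 0.11 and -0.43.

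**Figure D3:**
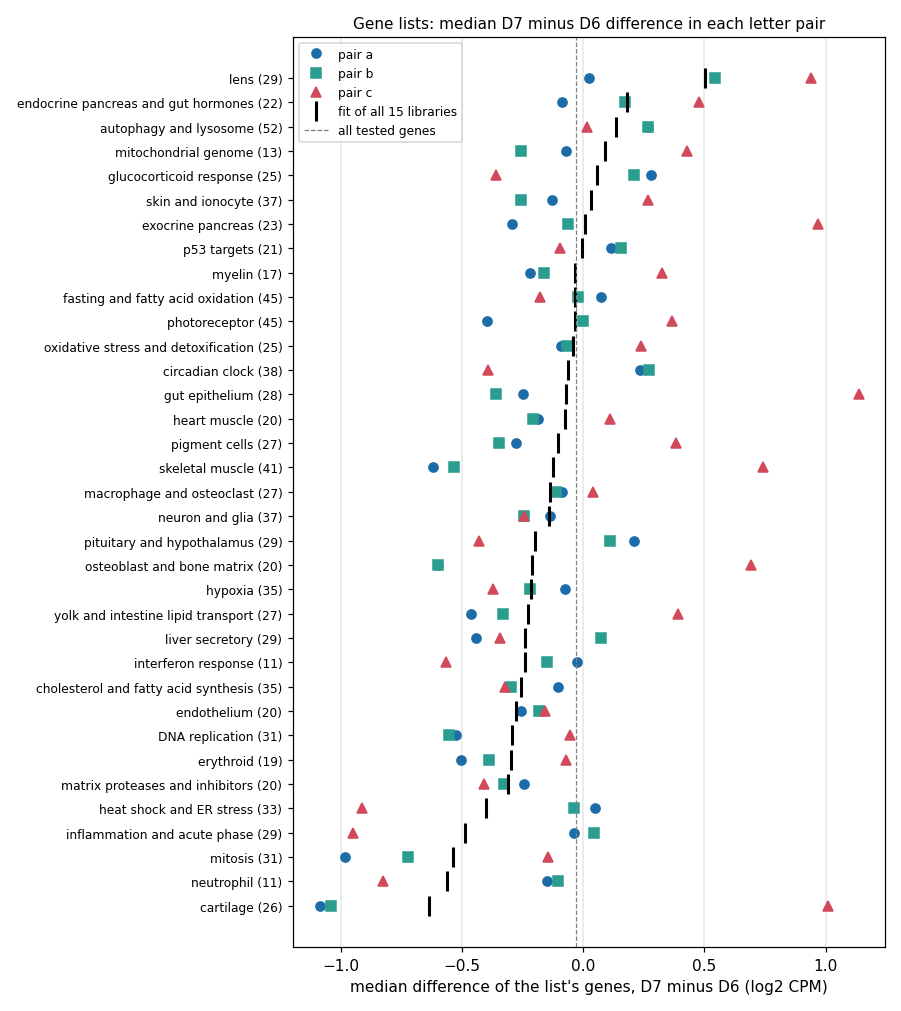
Median D7 minus D6 difference (x axis, log2 CPM) of the tested genes of 35 lists (y axis, number of genes in brackets) in pair a, pair b and pair c, with the median log2 fold change of the fit of 15 libraries as a bar and that of all tested genes, -0.03, as a dashed line. Pairs a and b lie close together in most lists, while pair c lies on the other side of zero for cartilage (1.01, against -1.08 in pair a) and below the other pairs for heat shock genes (-0.91).

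With the c libraries of all days left out, 302 of 21643 genes were called (1.4%), 89 higher and 213 lower on D7. The c pair, which took no part in these calls, shared the sign of 48 of the 89 higher genes and of 70 of the 213 lower genes. The median c difference was 0.15 for the higher and 0.39 for the lower genes. Over all genes that were higher in both pairs a and b, pair c was higher for 3511 and lower for 3274. Where both were lower, pair c was lower for 3380 and higher for 3636. The genes in the rest of this paragraph were picked after their values were seen. PPP1R27, a regulator of protein phosphatase 1, had 76.9, 80.3 and 46.9 CPM on D7, against 12.6, 11.9 and 89.8 CPM on D6. NDRG1, a gene induced by hypoxia and stress, had 558, 689 and 595 CPM on D7, against 159, 197 and 654 CPM on D6. In both, D6 c alone was high among the D6 libraries. hspb9l, a small heat shock gene, had 575.5, 354 and 83.8 CPM on D7, against 94.4, 104.5 and 115 CPM on D6. si:dkey-153m14.1 (ENSDARG00000096403) had 200.5 and 315 CPM in D7 a and b, against 5.11 and 1.97 CPM in D6 a and b. It had 161 and 250 CPM in D5 a and b, and 1.01 and 8.31 CPM in D4 a and b, so that D6 was low between higher days. It had no count in any c library of the course. Its log2 fold change was 6.03 (SE 0.78, edgeR adjusted p = 0.0844) and rests on the a and b pairs.

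A list of 18 symbols, which match 20 tested genes, was examined as the genes that the study names. MMP2, il1b and ENTPD5 are on it but do not appear in the study's text used here, whereas rankl does and was not listed. The study chose its genes partly on these samples, so the list is no independent evidence of a direction. None of the listed genes passed the adjusted threshold, and the median was -0.50. At an unadjusted p below 0.05, 3 were lower, il1b among them, and 0 higher, where 4.02% and 3.72% of all genes were. cdkn1a, the cell cycle inhibitor p21, had 5.70, 5.22 and 5.87 CPM on D7, against 4.76, 4.48 and 17.0 CPM on D6. The D7 libraries were alike and D6 c was the highest of the 6, with a log2 fold change of -0.65 (SE 0.53), and of 0.25 in the a and b libraries alone. RELA, a subunit of NF-kappaB, had 8.30, 7.68 and 6.84 CPM on D7, against 6.96, 8.775 and 22.0 CPM on D6. JUN, an immediate early factor, had 121, 124 and 187 CPM on D7, against 124, 120.3 and 360.4 CPM on D6. In both genes D6 c again stood alone. TIMP2 (ENSDARG00000075261), an inhibitor of matrix proteases, had 6.14, 4.93 and 12.3 CPM on D7, against 8.165, 6.745 and 135 CPM on D6, and a log2 fold change of -2.30 (SE 0.97) that became 0.11 without D6 c. The second TIMP2 gene, ENSDARG00000061226, had 129, 136 and 124 CPM on D7, against 101, 102 and 179 CPM on D6. ENTPD5, which makes phosphate available for mineral, had 1.3, 0.705 and 2.93 CPM on D7, against 4.615, 3.16 and 1.38 CPM on D6, lower on D7 in pairs a and b only.

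The last step was then set against the earlier steps of the course by contrasts in the same fit. Set against the step from D5 to D6, which shares the D6 libraries, 0 genes differed at the adjusted threshold (edgeR quasi-likelihood), 639 at an unadjusted p below 0.05 (2.94%), and 2 in DESeq2. Set against the step from D4 to D5, 1 gene differed (0.0046%). Set against the step from D3 to D4, 56 genes differed (0.257%), of which 54 had the lower difference in the last step. Such a lower difference need not be a fall, since 123 of the 133 genes called from D3 to D4 rose there. From D6 to D7 itself 1 gene was called lower. The calls for the steps themselves were 133 from D3 to D4 (0.611%), 61 from D4 to D5 (0.28%), 42 from D5 to D6 (0.193%) and 2 from D6 to D7. Calls for the same steps in the a and b libraries alone were 3662 (16.9%), 511 (2.36%), 387 (1.79%) and 302 (1.4%).

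The mitosis and cartilage genes had been declining in libraries a and b since D3. The mean log2 CPM of the mitosis genes in library a, in the order D3 to D7, was 5.13, 4.35, 3.60, 2.86 and 1.93, and library b ran beside it. In library c it declined day by day as well, at 4.99, 4.59, 3.625, 3.31 and 3.24, with the smallest step from D6 to D7. The mean log2 CPM of the cartilage genes also declined day by day in libraries a and b, whereas library c had 5.84 on D5, 3.74 on D6 and 4.62 on D7, close to the 4.57 and 4.53 of D7 a and b. The autophagy genes went up each day in libraries a and b, while in library c the highest mean was on D6.

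**Figure D4:**
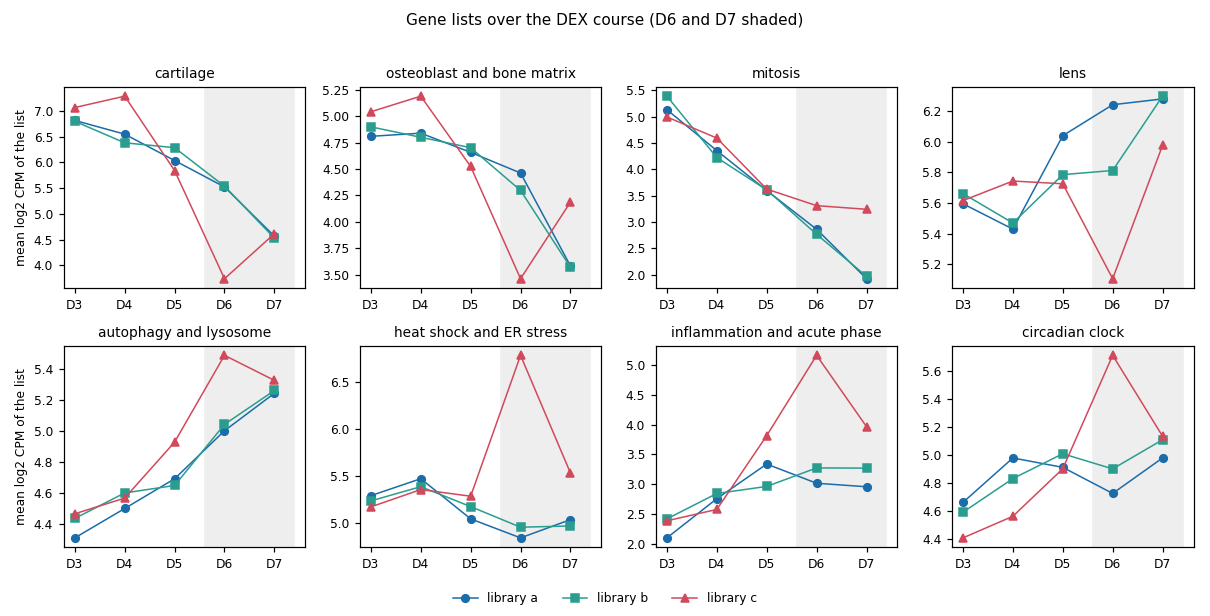
Mean log2 CPM (y axis, range fitted to each panel) of the tested genes of 8 lists from D3 to D7 (x axis, D6 and D7 shaded), with 1 line for each letter. Libraries a and b run together over the course, and library c departs from them on D6 for cartilage, at 3.74, and the heat shock genes, at 6.79, and on D7 more than on D6 for mitosis, at 3.24 against 1.93 and 1.97 in D7 a and b. Cartilage in library c also lies apart on D4, at 7.29 against 6.55 and 6.38 in D4 a and b.

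Several named genes had a last step that differed from an earlier one. CYP51A1 had mean CPM of 18.99, 64.5, 78.1, 22.0 and 8.95 in the order D3 to D7, so that it was lowest on D7. The log2 step from D3 to D4 was 1.79 and that from D6 to D7 was -1.35, a difference of -3.14 (edgeR adjusted p = 0.0128). HMGCS1 and SQLE (ENSDARG00000079946) likewise peaked on D4 or D5 and were lowest on D7, with differences between the steps of -2.14 and -3.20 (edgeR adjusted p of 0.0248 and 0.0249). hspb6 had mean CPM of 26.1, 98.0, 92.6, 62.5 and 17.0 over the same days, with a difference of -3.77 (edgeR adjusted p = 0.000648). scpp9 stayed between 8.75 and 22.0 CPM in all libraries from D4 to D6 before it was low on D7. si:ch211-198i6.4 was under 1 CPM in every D4 library and highest on D7, and CALCOCO1 (ENSDARG00000016391), an adaptor of selective autophagy, took its largest step earlier. CALCOCO1 had 192, 162 and 267 CPM on D7, against 132, 115 and 176.5 CPM on D6, a last step of 0.54, while its step from D4 to D5 was 3.88, and the difference of -3.35 was called (edgeR adjusted p = 0.0121).

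**Figure D5:**
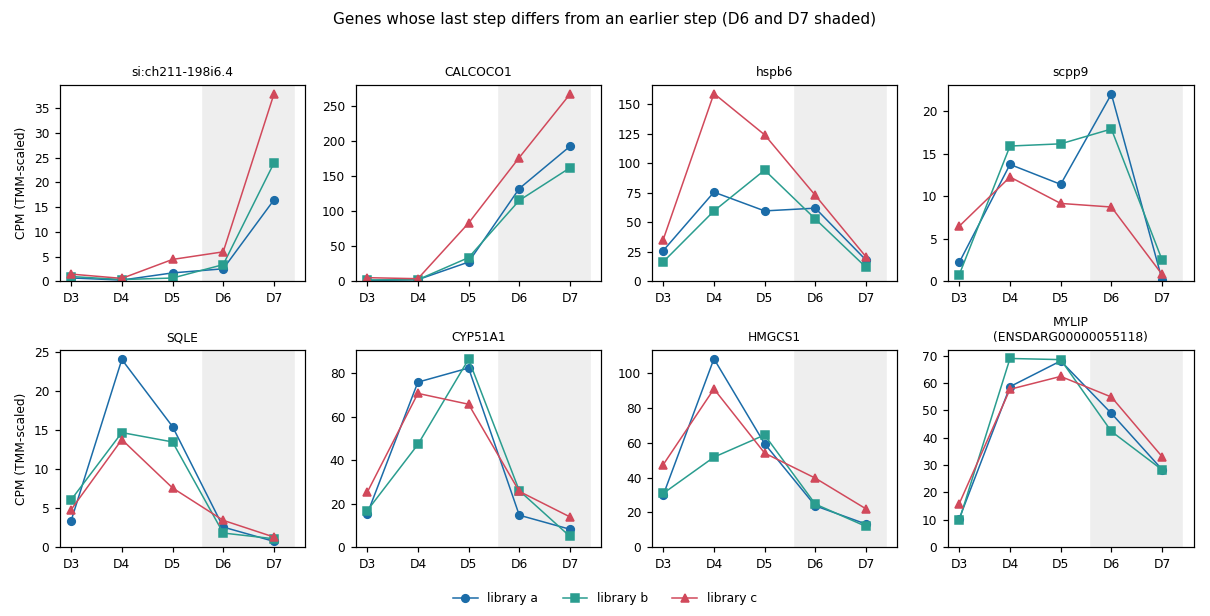
CPM scaled by TMM (y axis, from 0) of 8 genes from D3 to D7 (x axis, D6 and D7 shaded), with 1 line for each letter. si:ch211-198i6.4 and CALCOCO1 are highest on D7, and hspb6 and the sterol genes SQLE (ENSDARG00000079946), CYP51A1 and HMGCS1 peak on D4 or D5 and are lowest on D7. MYLIP (ENSDARG00000055118) also peaks on D4 or D5 and is lower on D7 than on D6, but stays above its D3 values.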

How the data were processed

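Raw RNA-seq counts per gene were deposited by the authors in 1 table of the DEX course. Per the labels and the study's methods, RNA of whole larvae was sequenced, and reads were trimmed with Trim Galore, aligned to GRCz11 with STAR (2.7.8) and counted with HTSeq (0.13.5). The annotation release and strand setting are not given in the sources used here, and the values of overlapping genes and close paralogues are therefore uncertain. The table of the cdkn1a crispants was not used. No per-sample column of the DEX table was left out (0). The column letters a, b and c were taken for replicates 1, 2 and 3 of the labels.

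Of 32520 genes listed, 29201 were paired with a symbol by their Ensembl identifier. Upper-case symbols are those of the human counterpart and can stand for several zebrafish genes. Counts were scaled by TMM, filtered by filterByExpr and fitted for all 15 DEX libraries with day and letter in edgeR (4.0.16, R 4.3.3), by the quasi-likelihood F-test with Benjamini-Hochberg adjustment over 21750 genes at 0.05. CPM values use the TMM library sizes, and log2 CPM used for pairs and lists has a prior count of 2. Nothing says whether the replicates were separate clutches, so p-values measure the spread between these samples. No pair of replicates agreed within sampling noise.

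The block was fixed when the comparison was defined. Deviations from the day means correlated between D7 and D6 libraries of the same letter, at 0.444 in a, 0.465 in b and 0.59 in c. However, a correlated with b about as well (0.447 and 0.406), so the deviations set c apart and do not show a pairing of a with a or b with b. Alternatives were a fit without the block, the 6 libraries alone, DESeq2 (1.42.0), RLE scaling, other filters, each library left out, and the a and b libraries alone. The main fit was also run on simulated data in which the effect of each letter was the same on every day. The c libraries here departed differently on D6 and D7, so that run cannot show how the fit does on them.

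Named genes were those past the threshold, then the 12 higher and 12 lower genes with the smallest p among genes with a symbol, a mean of at least 1 log2 CPM and the same direction in all 3 pairs, then the genes the study names, and up to 4 members for each direction of a list with those that define it. The gene lists (36, with 988 symbols, of which 924 were matched) and the members of the comparison were chosen with earlier results of these data known. Promoter motifs had been planned and were not run.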

Additional observations from a re-analysis of the deposited data

Results flagged for a closer look

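The results in this section were picked because the last step, from D6 to D7, differed from an earlier step of the same course in a test of the difference itself (edgeR quasi-likelihood contrast of the steps, adjusted over all genes). Values are the log2 difference of the last step minus the earlier one, and nothing beyond the contrast was tested.

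Against the step from D4 to D5, CALCOCO1 (ENSDARG00000016391) differed by -3.35 (edgeR adjusted p = 0.0121), as its last step was small after a large early one. Against the step from D3 to D4, 2 genes with clone-based names had a higher last step, si:ch211-198i6.4 by 4.04 (edgeR adjusted p = 0.00994) and si:ch211-195m9.3 by 2.24 (edgeR adjusted p = 0.0496). The matrix gene scpp9 differed by -5.88 (edgeR adjusted p = 0.0248), with D7 values of 0.217, 2.54 and 0.827 CPM. The muscle genes hspb6 and tcap, a cap protein of the sarcomere's titin, differed by -3.77 (edgeR adjusted p = 0.000648) and -3.47 (edgeR adjusted p = 0.0268). tcap was high in both c libraries, at 31.6 CPM in D7 c and 125 CPM in D6 c.

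Genes of sterol supply made up a further group. HMGCS1 differed by -2.14, SQLE by -3.20 and CYP51A1 by -3.14 (edgeR adjusted p of 0.0248, 0.0249 and 0.0128). Their log2 steps, in that order, were 1.22, 1.86 and 1.79 from D3 to D4. From D5 to D6 they were -1.08, -2.21 and -1.86, and from D6 to D7 -0.92, -1.34 and -1.35. The estimated fall was larger from D5 to D6. Neither the last step itself nor its difference from the step from D5 to D6 was called for these genes. MYLIP (ENSDARG00000055118), the ligase of the LDL receptor, differed by -3.08 (edgeR adjusted p = 0.000373). Most of that was its step from D3 to D4, at 2.38, against a last step of -0.70 that was not called. The exporter ABCC4 differed by -1.74 and the aminotransferase GPT2 by -1.46 (edgeR adjusted p of 0.00994 and 0.0248).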

How the results depend on the processing

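The count of genes called for D7 against D6 depended on the settings. Instead of 2 it was 0 without the replicate block and 0 in the 6 libraries of both days, 48 in DESeq2, 7 without a filter, 1 with at least 10 counts in every library, 302 in the a and b libraries, and 0 to 22 with 1 library left out. All of DESeq2, RLE scaling, no filter and the a and b libraries included both genes. Genes at an unadjusted p below 0.05 numbered 907 without the replicate block, 2803 in the a and b libraries and 1086 to 2560 with 1 library left out. Step differences called were, against D5 to D6, 2 in DESeq2, 1 without a filter and 1 in the a and b libraries. Against D4 to D5 they were 0 without the block, 51, 6 and 203 in the same settings and 0 to 7 with 1 library left out, and against D3 to D4 they were 23, 246, 87, 1578 and 16 to 119. They could not be computed from the 6 libraries alone.

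The replicate spread of a list was the SD of its pair medians, so it was wide where pair c differed. List medians moved beyond it for macrophage genes with at least 10 counts (-0.24). In the a and b libraries they did so for DNA replication (-0.60), heart (-0.26), endothelium (-0.21) and neurons (-0.22). Lists within the spread still changed there, from -0.64 in the main fit to -1.11 for cartilage and from -0.12 to -0.48 for skeletal muscle. Heat shock went from -0.40 to 0.08 and inflammation from -0.49 to 0.01. With 1 library left out, most moves beyond the spread came without D6 c (11 lists) and D7 c (8 lists). The medians then ran from -0.71 to -0.0862 for DNA replication, -1.09 to -0.35 for mitosis, -0.57 to 0.22 for heat shock, -0.73 to 0.19 for inflammation, -0.48 to 0.20 for interferon response, -0.88 to 0.0328 for neutrophils, -0.37 to -0.00894 for macrophages, -0.35 to -0.23 for matrix proteases, -0.14 to 0.20 for p53 targets, -0.27 to -0.00822 for heart, -0.38 to -0.11 for endothelium, -0.46 to 0.31 for photoreceptors, -0.33 to -0.0773 for neurons, -0.54 to 0.0437 for pigment cells, -0.33 to 0.11 for skin and -0.69 to -0.21 for the genes the study names. Within the replicate spread, medians still ran from -1.14 to -0.32 for cartilage, -0.58 to -0.14 for bone, -0.59 to 0.38 for gut epithelium, -0.31 to 0.30 for clock genes, -0.0998 to 0.19 for the glucocorticoid response, -0.44 to 0.52 for exocrine pancreas and 0.22 to 0.80 for lens.

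Signs turned in the a and b libraries for cdkn1a (0.25), RELA (0.0269), JUN (0.0104) and runx2b (0.10). With 1 library left out the log2 fold changes ran from -1.08 to 0.52 for cdkn1a, -0.60 to 0.0877 for JUN, -2.53 to 0.20 for MMP9, -1.57 to 1.06 for mmp13a, -1.12 to 0.0702 for COL2A1 (ENSDARG00000011407), -0.0667 to 0.31 for TIMP2 (ENSDARG00000061226), -3.02 to 0.11 for TIMP2 (ENSDARG00000075261), -0.70 to 0.0757 for SP7, -0.17 to 0.34 for CTSK, -0.48 to 0.42 for runx2b and -0.0843 to 0.59 for ABCA1. Of 131 named results, both calls were lost without the replicate block and in the 6 libraries, and the other 129, which were not called, kept their direction. RLE scaling changed no call or direction. Calls were gained by 53 in the a and b libraries, where 4 turned sign, by 29 in DESeq2 and by 3 without a filter. The causes were not tested.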
